A study of Mus musculus with 10 samples.

Results

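The ATAC-seq data of this study mark open chromatin in F123 mouse embryonic stem cells. F123 is an embryonic stem cell line from an F1 cross of castaneus and S129/SvJae mice, so 1 genotype is measured. The cells had no treatment. They grew with LIF on irradiated CF1 mouse embryonic fibroblasts and had 1 feeder-free passage on gelatin before harvest. The series also holds PLAC-seq and H3K4me3 ChIP-seq samples of the same cells, of which only the H3K4me3 peaks are used here, as a second readout. The 2 ATAC-seq replicates were deposited as 1 list of replicated peaks with positions only. It held 179109 peaks, and the 172958 on chromosomes 1 to 19 are described here. Both lists together hold 212596 peaks.

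Each peak was placed once, by its midpoint, on mm10 with GENCODE M21. The classes were filled in a fixed order: within 1 kb of a protein-coding transcript start, within 1 kb of another transcript start, exon, intron and intergenic. The known bases of the 19 chromosomes, 2395.9 Mb, were placed by the same rule, which gives each class its share of the genome. No value has a spread between replicates, and the depth of each library is unknown, so no difference between classes was tested. The 95% Wilson intervals cover counting error over peaks only. The range over the 19 chromosomes is given beside them as a description, since chromosomes are not replicates.

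DNA wrapped around a nucleosome is hard for the Tn5 transposase to reach, and ATAC-seq reads the places where it can insert. Such places lie at promoters, where the transcription machinery assembles, and at distal enhancers and insulators, where transcription factors or CTCF displace nucleosomes. Most mammalian promoters of widely expressed genes sit in CpG islands and carry H3K4me3, a histone mark of promoters. In embryonic stem cells, many promoters of developmental regulators carry H3K4me3 although the genes are silent. Much of the remaining genome is made of repeats such as L1 and LTR retrotransposons, whose own promoters can be open.

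The labelled cell type was checked against its markers. Of all protein-coding genes, 74.6% had an ATAC-seq peak midpoint and 69.3% an H3K4me3 peak within 1 kb of a protein-coding start. All 8 embryonic stem cell markers (Pou5f1, Sox2, Nanog, Esrrb, Zfp42, Tfcp2l1, Dppa4 and Utf1) had both, and the widest ATAC-seq peak at each was 562 to 2567 bp. Of the 10 feeder fibroblast markers, 6 had both (Col1a1, Col1a2, Dcn, Thy1, Twist2 and Prrx1) and Col3a1, Lum, Postn and Fap had neither. The part of feeder cells in the list was not tested.

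A few windows give single examples of sequence, all from the plus strand of mm10 and 5′ to 3′. They were picked by width and are not typical of their classes. The first 5 windows are the central 200 bp of the widest peak, per class, whose nearest protein-coding start belongs to a pluripotency gene. None of these 5 held any of the motifs searched, so they have no capitals. The protein-coding start window lies at chr3:34649961-34650160, 344 bp before the nearest start of Sox2, a core pluripotency factor. The other-start window lies at chr5:119680359-119680558, 9441 bp past a start of Tbx3. The exon window lies at chr1:118837551-118837750, with Tfcp2l1 as the nearest gene by its start, 209705 bp away. The intron window lies at chr4:55464227-55464426, with Klf4 nearest at 67443 bp. Neither the exon window nor the intron window lies within the gene that labels it. The exon and the intron belong to other transcripts. The intergenic window lies at chr9:110938599-110938798, 6172 bp past a start of Tdgf1.
Sox2, protein-coding start: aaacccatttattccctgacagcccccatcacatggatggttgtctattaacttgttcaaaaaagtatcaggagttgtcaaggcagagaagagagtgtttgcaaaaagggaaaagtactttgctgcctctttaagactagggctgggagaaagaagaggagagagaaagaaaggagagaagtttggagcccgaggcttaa
Tbx3, other start: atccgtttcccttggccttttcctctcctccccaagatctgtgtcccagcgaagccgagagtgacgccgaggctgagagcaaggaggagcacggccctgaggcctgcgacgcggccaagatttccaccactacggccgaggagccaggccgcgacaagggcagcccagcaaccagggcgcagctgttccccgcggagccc
Tfcp2l1, exon: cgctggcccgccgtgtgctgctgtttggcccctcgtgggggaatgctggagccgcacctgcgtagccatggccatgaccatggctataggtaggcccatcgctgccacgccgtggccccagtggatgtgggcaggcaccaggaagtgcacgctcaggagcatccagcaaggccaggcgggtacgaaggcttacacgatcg
Klf4, intron: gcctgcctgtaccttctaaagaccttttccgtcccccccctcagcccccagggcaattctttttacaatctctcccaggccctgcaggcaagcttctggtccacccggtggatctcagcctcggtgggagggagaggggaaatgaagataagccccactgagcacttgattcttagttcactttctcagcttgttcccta
Tdgf1, intergenic: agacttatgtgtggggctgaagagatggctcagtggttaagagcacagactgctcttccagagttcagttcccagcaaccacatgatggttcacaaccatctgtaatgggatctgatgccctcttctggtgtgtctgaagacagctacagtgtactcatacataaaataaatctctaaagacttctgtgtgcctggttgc
The 5 windows differ in base composition. The Tbx3 and Tfcp2l1 windows hold 66.5% and 66.0% GC with 16 and 14 CpG. The Klf4 window has 3 CpG. The Sox2 window has 43.5% GC and 1 CpG, and the Tdgf1 window has 46.0% GC, no CpG and 86.5% soft-masked bases. Peaks at protein-coding starts had a median of 63.0% GC (quartiles 56.0 and 70.5%) and 13 CpG, so the Sox2 window is unlike its class. The Tbx3 and Tfcp2l1 windows lie above the upper GC quartiles of their classes (59.0 and 60.0%). The Tdgf1 window lies below the lower GC quartile of intergenic peaks (47.0%). The peaks with the Sox2, Tbx3 and Tfcp2l1 windows overlapped H3K4me3, and those with the Klf4 and Tdgf1 windows did not.

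A further 3 windows, chosen after the values were seen, show the motif patterns described below, with the matches in capitals. The Gmeb1 window (chr4:132261036-132261235) is of the widest protein-coding start peak, outside UTRs, whose central 200 bp matched both GGGCGGGG and CCGGAAGT, the letters of SP/KLF and ETS factors. Both matches are on the minus strand. The Ttc8 window (chr12:99084169-99084368) is of the widest intergenic peak with a CTCF match, without H3K4me3 and not soft-masked, 163449 bp from the nearest protein-coding start. The repeat window (chr8:52305655-52305954) lies in the widest intergenic peak of the list and holds AAGATGGCG, the letters of YY1, on the minus strand at positions 41 and 253 of the window, 212 bp apart.
Gmeb1, protein-coding start: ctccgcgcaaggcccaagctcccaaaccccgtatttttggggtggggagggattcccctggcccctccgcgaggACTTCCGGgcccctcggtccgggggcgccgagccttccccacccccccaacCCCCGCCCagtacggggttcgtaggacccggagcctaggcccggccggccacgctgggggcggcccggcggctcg
Ttc8, intergenic with a CTCF match: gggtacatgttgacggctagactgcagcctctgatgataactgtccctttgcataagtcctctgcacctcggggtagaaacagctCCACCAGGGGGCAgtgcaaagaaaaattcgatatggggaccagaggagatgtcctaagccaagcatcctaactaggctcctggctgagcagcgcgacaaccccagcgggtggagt
chr8 repeat, intergenic: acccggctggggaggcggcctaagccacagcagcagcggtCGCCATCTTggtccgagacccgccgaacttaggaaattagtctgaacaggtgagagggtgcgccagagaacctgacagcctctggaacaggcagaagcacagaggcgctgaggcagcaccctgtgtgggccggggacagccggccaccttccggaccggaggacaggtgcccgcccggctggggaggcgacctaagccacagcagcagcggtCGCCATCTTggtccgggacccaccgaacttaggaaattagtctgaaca

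The first question was where the open sites lie. Introns and intergenic DNA held most peaks, but protein-coding starts held the most for their length. The 21149 peaks at protein-coding starts were 12.2% of the list (12.1 to 12.4%), in 2.57% of the known bases, a fold of 4.76. The 11245 peaks at other starts were 6.50% of peaks in 3.71% of bases (fold 1.75). Exons away from starts held 8861 peaks, 5.12% of the list in 3.37% of bases (fold 1.52). Introns held 63871 peaks, 36.9% of the list in 40.3% of bases (fold 0.917). Intergenic DNA held 67832 peaks, 39.2% of the list in 50.1% of bases (fold 0.783). As a density, this is 343 peaks per Mb at protein-coding starts, 127 at other starts, 110 in exons, 66.2 in introns and 56.5 in intergenic DNA, against 72.2 over all classes.

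The side of 1 on which a class fell was the same on every autosome. The 3 classes above 1 were above it on 19 of 19 chromosomes and introns and intergenic DNA were below it on 19 of 19. The fold at protein-coding starts ranged from 3.93 on chromosome 7 to 6.07 on chromosome 18. That of intergenic DNA ranged from 0.730 on chromosome 7 to 0.864 on chromosome 13. Introns came closest to 1, at 0.995 on chromosome 3.

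**Figure D1:**
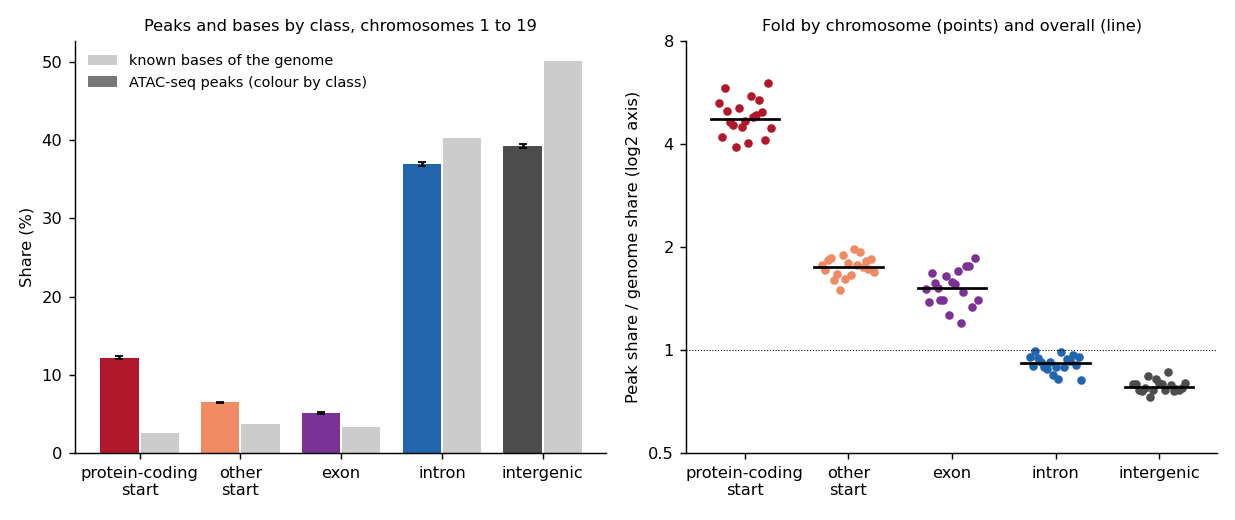
Left, share of ATAC-seq peaks (coloured bars, 95% Wilson intervals) and of known bases (grey bars) in each class, in percent. Right, peak share over genome share for each of the 19 chromosomes (points) and for all (line) on a log2 axis, with protein-coding starts between 3.93 and 6.07 and intergenic DNA between 0.730 and 0.864.

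Peaks at protein-coding starts were also the wide ones. Their median width was 706 bp (quartiles 311 and 1003 bp), and it lay between 605 and 792 bp on every chromosome. The medians of the other classes were 272 bp at other starts, 262 bp in exons, 233 bp in introns and 246 bp in intergenic DNA. Their ranges over chromosomes, 235 to 321, 237 to 299.5, 225 to 244.5 and 237 to 250 bp, overlapped each other but not that of protein-coding starts. Of the peaks at protein-coding starts, 25.2% were at least 1 kb wide, against 1.22% in introns and 1.92% in intergenic DNA. Of the 8135 peaks of that width, 5339 (65.6%) lay at protein-coding starts. The class covered 15.0 Mb, 23.5% of all bases in peaks, so that peaks filled 24.4% of the bases within 1 kb of a protein-coding start and 1.85% of intergenic bases.

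Only the widest peaks differed much in class from the rest of the list. When the list was cut by width into 10 equal bands, protein-coding starts made up 4.47 to 8.79% of each of the 8 narrowest bands. They were 20.8% of the next band (532 to 766 bp) and 55.1% of the widest (766 bp and more). The share of peaks that overlap H3K4me3 rose earlier. It was 7.91% at 164 to 189 bp, 15.1% at 323 to 406 bp and 23.0% at 406 to 532 bp. In the 2 widest bands it was 41.8 and 73.4%.

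The widest peaks of a class are named here by the nearest gene. The 3 widest at protein-coding starts were 2835 bp at Arid1b (chr17:4993934-4996768), a subunit of the BAF chromatin remodeler, 2833 bp at Foxl2 (chr9:98954619-98957451), a forkhead factor of the ovary, and 2740 bp at Rims2 (chr15:39196731-39199470), a protein of synaptic vesicle release. All 3 overlapped H3K4me3. The 3 widest in exons overlapped it too, with Zfp316 (2278 bp), Sp8 (2273 bp) and 4632433K11Rik (2252 bp) as the nearest genes. The 3 widest of introns (2907, 2523 and 2424 bp, with Agpat4, Impg1 and Fgf12 as the nearest genes by their starts) and the 3 widest of intergenic DNA (2674, 2639 and 2616 bp, nearest to Aga, Cntn1 and Nr4a2) had central 200 bp windows that were 100.0% soft-masked, and none overlapped H3K4me3.

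The 2 widest peaks of the whole list were at other starts. The 4612 bp peak at chr1:24611559-24616170, beside Gm28437, shared 98.8% of its 31-base words with the mouse mitochondrial genome. Mitochondrial reads were removed by the authors, and how reads that map to several places were handled is not stated. Only 7 autosomal peaks shared at least 50% of their words with it. The 4328 bp peak at chr17:39843001-39847328 lay beside Gm26917 and did not overlap H3K4me3. The next widest peak of the class, 2299 bp beside Gm36816, had a central window that was 100.0% soft-masked.

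**Figure D2:**
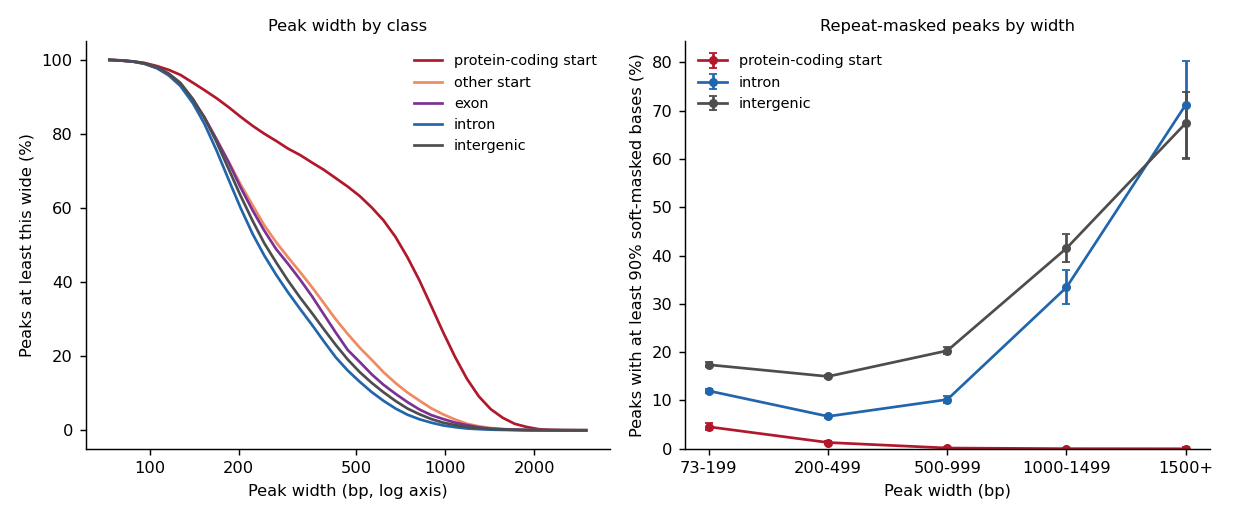
Left, share of peaks in each class that are at least as wide as the value on the log axis, in bp, with the curve of protein-coding starts above the others. Right, share of peaks with at least 90% soft-masked bases by width, with 95% Wilson intervals, which reached 71.2% for introns and 67.4% for intergenic DNA at 1500 bp and more and was 0% at protein-coding starts.

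Within 1 kb of protein-coding starts, peaks were centred just inside the transcript. The median midpoint was 29 bp downstream of the start (quartiles −87 and 188 bp), and 42.2% of midpoints were upstream. Within 250 bp of the start lay 66.3% of the midpoints, and 18.6% lay beyond 500 bp. The fullest step of 50 bp, from 0 to 50 bp downstream, held 2571 peaks, and the outermost upstream step held 157.

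Peaks near the start and those farther out were of different kinds. Within 250 bp the median width was 799 bp, and 88.7% overlapped H3K4me3. Beyond 500 bp the median width was 238 bp, close to that of introns, and 68.1% overlapped H3K4me3. At equal distance from the start, the median width was higher downstream than upstream in 17 of 20 steps and H3K4me3 overlap in 20 of 20. The median width was highest, 950 bp, between 250 and 300 bp downstream against 628 bp between 250 and 300 bp upstream, and H3K4me3 overlap in the same steps was 91.3% and 75.8%.

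**Figure D3:**
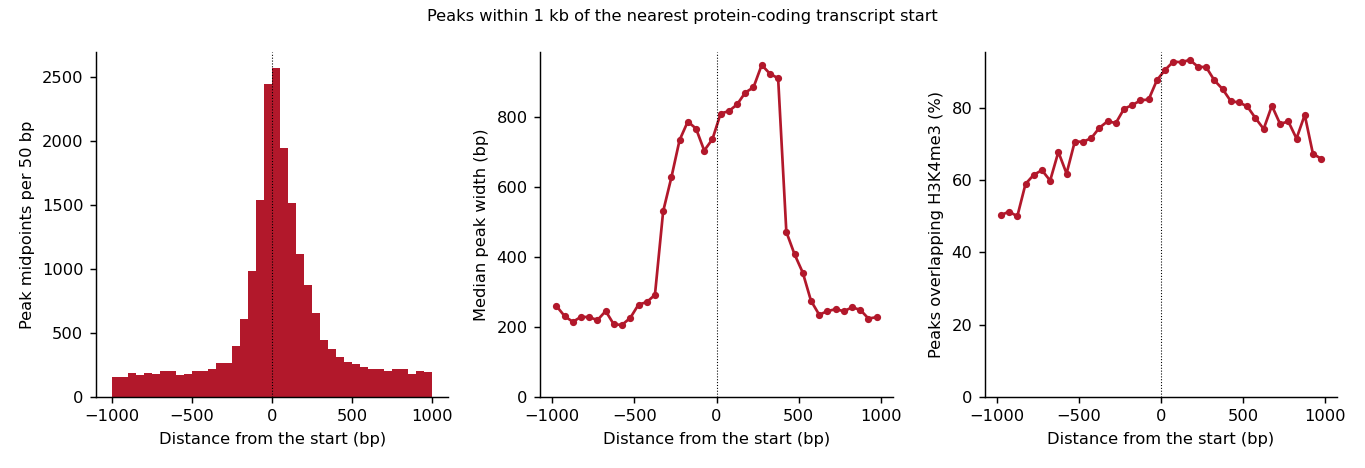
Peaks by the distance of the midpoint from the nearest protein-coding transcript start, in bp and in steps of 50 bp, as the number of midpoints (left), the median width in bp (centre) and the percentage that overlaps an H3K4me3 peak (right). Midpoints pile up around a median of 29 bp downstream, and wide peaks lie within about the same stretch.

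By gene, 15459 of 20722 autosomal protein-coding genes, or 74.6% (74.0 to 75.2%), had an ATAC-seq peak midpoint within 1 kb of a protein-coding start. Of these open genes, 67.3% had a single such peak, 1515 had at least 3, and the widest peak per gene had a median of 892 bp. An H3K4me3 peak reached the start window of 91.7% of the open genes and of 3.40% of the other 5263 (179 genes). Open genes with H3K4me3 had a widest peak of 924 bp at the median, against 300.0 bp for the 1287 open genes without it. No peak at all, at a start or within the gene, was listed for 3663 genes (17.7%). Counted over 52099 distinct protein-coding starts, 35882 (68.9%) had a peak within 1 kb.

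All 24 pluripotency and embryonic stem cell genes had a peak and H3K4me3 at a start, against 74.6% and 69.3% of all genes. The widest peak per gene had a median of 774.5 bp, below the 892 bp of all open genes. Sox2 had the widest, 2567 bp, and Tet1, a 5-methylcytosine dioxygenase, the next, 1596 bp. The start peaks of Pou5f1 (949 bp), the POU factor that pairs with Sox2, and of Nanog (562 bp), a homeobox factor of the naive state, were narrower. Dppa5a (461 bp) and Tdgf1 (480 bp) had the narrowest. Only 5 of the 24 reached 1 kb, Klf4 (1120 bp), Klf5 (1091 bp) and Tet2 (1101 bp) besides Sox2 and Tet1.

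Most open sites assigned to these genes lay away from the start, as in the whole list, where 12.2% of peaks lay at protein-coding starts. The 24 genes held 112 intron peaks and were the nearest protein-coding gene of 353 intergenic peaks. The median gene had 11 such intergenic peaks, against 1 for all protein-coding genes, and 1.5 intron peaks, against 1. Nr5a2, a nuclear receptor that acts upstream of Pou5f1, had 48, Klf5 had 43 and Sox2 42. Fbxo15 had 32, Dppa4 23 and Zfp42 21. Utf1, Lin28a, Tet1 and Dnmt3l had 1 each. Introns showed another order. Esrrb, an orphan nuclear receptor, held 35 intron peaks, Tet1 held 25 and Tet2 held 14, whereas 9 of the 24, Sox2, Pou5f1 and Nanog among them, held none. The number nearest to a gene also depends on how much gene-free DNA surrounds it. The number in introns depends on how much intron a gene has outside the start windows. Sox2 spans only chr3:34650405-34652461, whereas Esrrb spans chr12:86361117-86521628. Neither limit was taken into account, here or for the lists below.

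The other lists set these counts in context. All 15 housekeeping genes had a peak and H3K4me3 at a start (all genes 74.6% and 69.3%), with a median widest peak of 943 bp against 892 bp. Hsp90ab1, a cytosolic chaperone, had 1633 bp and Tubb5, a tubulin, 341 bp. They held 5 intron peaks in all and had a median of 1 nearest intergenic peak. Ywhaz, a 14-3-3 protein, had 31 and Eef1a1, a translation elongation factor, 17.

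Most regulators of later lineages are kept silent in embryonic stem cells. All 19 autosomal members had a peak at a start and 17 had H3K4me3, against 74.6% and 69.3% of all genes. Myf5, a regulator of skeletal muscle, and Spi1, a regulator of blood lineages, had none of the mark and the narrowest peaks, 366 and 460 bp. Sox17, an endoderm regulator, had 2173 bp, Cdx2, a regulator of trophectoderm and gut, 1435 bp, and Lhx2 1210 bp. Foxa2, a pioneer factor of endoderm, was nearest to 31 intergenic peaks. Gata1 lies on chromosome X and was left out.

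Genes of differentiated cells had the lowest share of open starts of the 5 lists. Of 20 genes, 7 had a peak, or 35.0% against 74.6% of all genes, and 4 had H3K4me3, against 69.3%. The 4 include Gfap, an astrocyte filament, which had no ATAC-seq peak at a start. Alb, Ins2, Myh6, Hbb-bt, Umod, Sftpc, Apoa1 and Gcg were among those with none. Among those with a peak, Mbp (1528 bp), a myelin protein whose locus also makes other transcripts, and Krt10 (811 bp) were wide, and Ngp (180 bp), Pomc (183 bp), Cryaa (247 bp) and Cd3e (364 bp) were narrow. Of the feeder fibroblast markers, Twist2 (1741 bp) and Thy1 (1166 bp) were wide, and Col1a1 had 170 bp and 16 nearest intergenic peaks.

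Of 76134 other transcript starts, 43.7% had a peak within 1 kb, against 68.9% of protein-coding starts. Many are close to a protein-coding start, and bidirectional promoter lncRNAs (90.8%) and nonsense-mediated decay transcripts (70.6%) were above the protein-coding share. Of the 47955 more than 2 kb from any protein-coding start, 23.1% had a peak, a set with no counterpart among protein-coding starts. In this set the share was 35.3% for antisense RNAs (33.5 to 37.2%) and 33.2% for lincRNAs (32.1 to 34.3%), the long noncoding RNAs between genes. It was 22.3% for miRNAs, 15.5% for pseudogenes and 13.4% for snRNAs. Any position can have a peak within 1 kb, since the list held 1 peak per 13.9 kb over all classes. That share was not counted, so how far each type lies from it is unknown. An H3K4me3 peak lay within 1 kb of 17.4% of these lincRNA starts and of 3.93% of the pseudogene starts. Of the 11245 peaks in this class, 2217 were nearest to the start of a retained-intron transcript, 2095 to a processed transcript, 2060 to a lincRNA and 1866 to a pseudogene.

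Among exons away from starts, coding sequence had the highest density of peaks. It held 3833 peaks (43.3% of the class) at 160 per Mb, a fold of 2.22 over the whole genome, and 39.1% of them overlapped H3K4me3. The 3′ UTRs held 2672 peaks at 92.2 per Mb, with 15.4% in H3K4me3. Exons of transcripts that are not protein-coding held 2281 at 83.6 per Mb. Only 75 peaks fell in 5′ UTRs, of which 0.623 Mb lie outside the start windows.

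Introns were open at close to the density of the genome, and first introns more than the rest. First introns of protein-coding transcripts held 20566 peaks at 72.7 per Mb, the other introns of these transcripts 34182 at 65.1 per Mb and introns of other transcripts only 9123 at 58.1 per Mb. Of first-intron peaks, 13.3% overlapped H3K4me3, against 7.52% in the other coding introns. Median widths were 235, 228 and 246 bp.

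Intergenic peaks thinned out with distance from transcript starts but did not become narrower. Between 1 and 5 kb from any start there were 76.7 peaks per Mb, above the genome's 72.2, and between 5 and 20 kb 74.6. The density was 52.6 at 20 to 50 kb, 38.4 at 50 to 100 kb, 28.7 at 100 to 200 kb and 25.8 at 200 to 500 kb. H3K4me3 overlap fell by distance too, from 16.9% within 5 kb to 1.58% at 200 to 500 kb, whereas the median width stayed between 235 and 249 bp. Only 20 peaks lay beyond 500 kb. The median intergenic peak was 15745 bp from the nearest transcript start of any kind.

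Spacing followed density, and peaks at protein-coding starts had the closest neighbours. The median gap from edge to edge to the nearest other peak was 1349 bp at protein-coding starts, 1757 bp at other starts, 1813 bp in exons, 2666 bp in introns and 2980 bp in intergenic DNA. The order of the 3 short ones rests on the window. With starts drawn at 0.5 kb the gap at protein-coding starts was 2051 bp, above the 1714 bp of other starts and 1650 bp of exons, and with the widest 50% of peaks it was 5678 bp, above 4592.5 and 4322 bp. A neighbour within 500 bp was found for 36.4% of peaks at protein-coding starts and for 19.2% in both introns and intergenic DNA. The smallest gap in the list was 96 bp.

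Neighbours were mostly of the same class in introns and intergenic DNA, and in every class more often than its share of the list. Classes are continuous stretches of DNA, so near neighbours tend to share a class by this layout. The share of the list does not allow for it, and its part was not tested. Over known bases, intron DNA held 1 peak per 15.1 kb and intergenic DNA 1 per 17.7 kb, against 2.91 kb at protein-coding starts. The median gap to the nearest peak of the same class was 3716 bp in introns and 3584 bp in intergenic DNA, but 6884 bp at protein-coding starts and 18067 bp at other starts, which lie in short separate windows. The nearest neighbour of an intergenic peak was intergenic in 86.6% of cases, against 39.2% of the list. That of an intron peak lay in an intron in 77.3%, against 36.9%. For peaks at protein-coding starts the nearest neighbour was of the same class in 46.2%, against 12.2% of the list. It was in an intron in 25.1% and intergenic in 17.6%. At other starts and in exons, the same class was nearest in 35.3 and 28.6%, against 6.50 and 5.12% of the list. Within 50 kb to each side, the median peak had 13 other peaks at protein-coding starts, 14 in exons, 11 in introns and 8 in intergenic DNA.

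**Figure D4:**
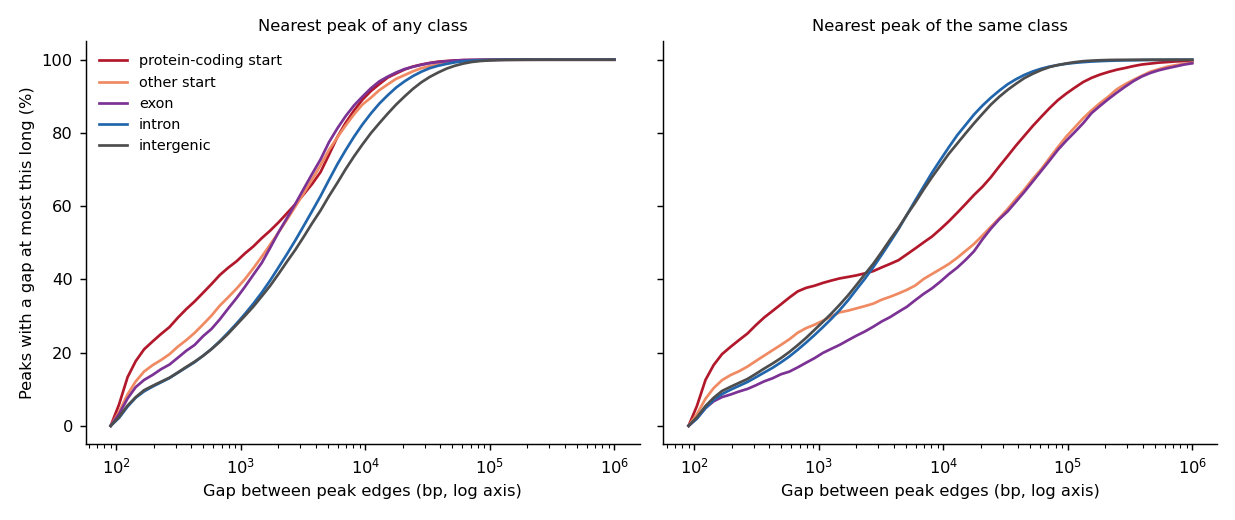
Share of peaks whose gap to the nearest peak of any class (left) or of the same class (right) is at most the value on the log axis, in bp, by class. Medians on the left run from 1349 bp at protein-coding starts to 2980 bp in intergenic DNA, and on the right the medians of intron and intergenic peaks, 3716 and 3584 bp, are the shortest.

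At the scale of 1 Mb, all 2376 windows with at least 90% known bases held peaks. The median window had 63 (quartiles 38 and 97), the emptiest 8, and the fullest, chr7:19000001-20000000, had 284 peaks with 53 protein-coding genes. The longest stretch without a peak was 1.22 Mb (chr5:94392144-95614159). It had no unknown bases and 14 protein-coding genes, 13 of them with Gm names. A peak-free stretch of 0.368 Mb on chromosome 8 held 14 protein-coding genes, 12 of the Defa family, the intestinal alpha-defensins. Reads from near-identical gene copies can be hard to place, and the part of mapping in these stretches was not tested.

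H3K4me3 was the second readout, and it separated protein-coding starts from the rest. It overlapped 83.9% of their peaks (83.4 to 84.4%), with 76.0 to 88.0% over chromosomes. The shares were 30.0% at other starts, 26.2% in exons, 9.78% in introns and 10.3% in intergenic DNA. The bases of the same classes were in H3K4me3 peaks to 39.9, 5.02, 3.53, 0.929 and 0.531%. The ratio of the peak share to the base share was largest in intergenic DNA, 19.4, and smallest at protein-coding starts. With 39.9% of their bases already in H3K4me3 peaks, protein-coding starts could reach only a low ratio even if every peak overlapped. The ratio also sets overlap by any base of a peak against a share of single bases. For these reasons its order does not rank the classes by their link with H3K4me3. The authors' fold enrichment of the H3K4me3 peak had a median of 29.1 for peaks at protein-coding starts, 9.56 at other starts, 7.37 in exons, 5.57 in introns and 5.74 in intergenic DNA.

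Width moved with H3K4me3 in every class. Without H3K4me3, the median width was 234 bp at protein-coding starts, 233 bp at other starts, 228 bp in exons, 224 bp in introns and 236 bp in intergenic DNA, so that the classes were alike to within 12 bp. With H3K4me3, the medians were 795, 478.5, 446, 395 and 433 bp. A wide peak overlaps another list more readily, and with at least 50% of the ATAC-seq peak inside the H3K4me3 peak the shares were 80.4% at protein-coding starts and 7.73% in intergenic DNA.

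**Figure D5:**
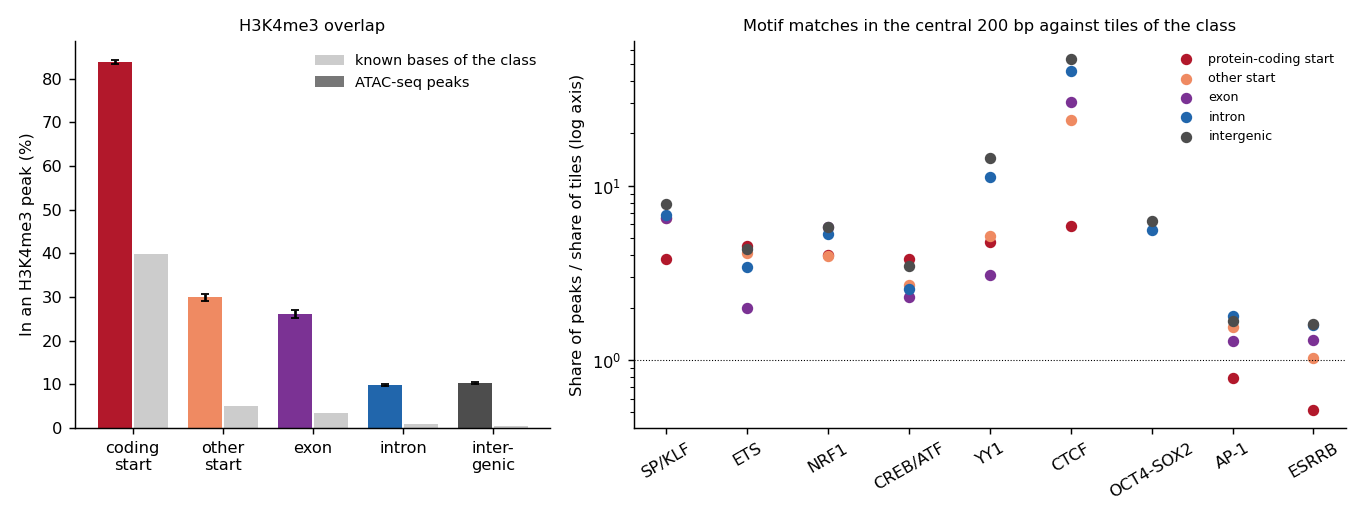
Left, share of ATAC-seq peaks that overlap H3K4me3 (coloured, 95% Wilson intervals) and share of the class's known bases within H3K4me3 peaks (grey), in percent. Right, share of peaks with a motif in the central 200 bp over the share of 200 bp tiles of the same class, on a log axis and for at least 10 peaks, with CTCF from 5.89 at protein-coding starts to 53.4 in intergenic DNA.

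The sequence under the peaks differed by class as well. GC content of the central 200 bp averaged 63.1% at protein-coding starts, against 49.3% in all 200 bp tiles of that class, and 51.4% against 40.9% in intergenic DNA. CpG was observed at 0.718 of its expected number at protein-coding starts and at 0.277 in intergenic peaks (tiles 0.438 and 0.172). Windows with at least 55% GC and an observed over expected CpG of at least 0.6, as in CpG islands, were 55.6% of peaks at protein-coding starts, 12.9% at other starts, 13.6% in exons, 2.72% in introns and 4.49% in intergenic DNA. The tiles of these classes held 14.6, 1.30, 1.64, 0.176 and 0.224%.

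Several motifs were in a larger share of peaks at protein-coding starts than elsewhere. Matches were counted on both strands in the central 200 bp, so a wide peak was searched over a smaller part of its length. Each motif was a fixed pattern of letters with no mismatch allowed. Sites that differ from the pattern were not counted, and a longer pattern is matched less often. A match is a description, not a bound site. The letters of SP/KLF factors (GGGCGGGG) were in 16.4% of peaks at protein-coding starts (tiles 4.34%) and in 3.05% of intergenic peaks (tiles 0.391%). ETS letters (CCGGAAGT) were in 2.83% against 0.401%, NRF1 letters (GCGCATGCG) in 0.927% against 0.121%, and CREB/ATF letters (TGACGTCA) in 1.17% against 0.330%. The Gmeb1 window above shows an SP/KLF and an ETS match 51 bp apart. Relative to tiles of the same class, SP/KLF letters had a fold of 3.78 at protein-coding starts and 7.82 in intergenic DNA, and NRF1 letters 4.00 and 5.79, so their order turned. The folds of ETS letters (4.49 and 4.31) and CREB/ATF letters (3.80 and 3.44) were close in these classes.

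The CTCF motif, of the insulator protein that anchors chromatin loops, was in a smaller share of peaks at protein-coding starts than elsewhere. It was in 0.709% of peaks at protein-coding starts (0.605 to 0.832%) and in 3.15% at other starts, 3.00% in exons, 3.24% in introns and 3.27% in intergenic DNA. The tiles held 0.120, 0.132, 0.0997, 0.0715 and 0.0612%, so the fold rose from 5.89 at protein-coding starts to 45.3 in introns and 53.4 in intergenic DNA. Peaks with the motif were narrow, with medians of 202 bp in introns and 203 bp in intergenic DNA. At protein-coding starts too they were the narrow ones, with a median of 224.5 bp against 710 bp for the others. The motif was in 2.43% of these peaks without H3K4me3 and 0.378% of those with it. Only the central 200 bp were searched, so a match elsewhere in a wide peak was not counted. The part of this window in the widths and in the lower share at protein-coding starts was not tested.

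Strict matches to the motifs of pluripotency factors were few, which depends on the fixed patterns and does not give the number of sites. These and the AP-1 letters were in a larger share of intron and intergenic peaks than of peaks at protein-coding starts. The composite of OCT4 (the product of Pou5f1) with SOX2 was in 26 intron and 34 intergenic peaks (folds 5.56 and 6.27) and in 3 at protein-coding starts. ESRRB letters (TCAAGGTCA) were in 0.747% of intron and 0.618% of intergenic peaks (folds 1.59 and 1.60) and in 0.227% at protein-coding starts (fold 0.514). AP-1 letters (TGANTCA) were in 10.8, 10.1 and 3.89% of these classes, with folds of 1.79, 1.67 and 0.788. GC content differs between peaks and tiles in every class, and the motif shares were adjusted neither for it nor for peak width.

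YY1 letters (AAGATGGCG) had another pattern, tied to wide repeats. YY1 is a zinc-finger factor of promoters and of enhancer loops. In the central 200 bp, its letters were in 1.38% of peaks at protein-coding starts, 1.69% in introns and 3.68% in intergenic DNA. The folds over tiles were 4.72, 11.2 and 14.4. The order depends on this window, which covers less of a wide peak. Whole peaks of 500 to 1000 bp with under 90% soft-masked bases held the letters in 4.31, 1.55 and 2.32% of these classes. Of the 3576 intron and intergenic peaks with the letters in the central 200 bp, 2957 (82.7%) had at least 90% soft-masked bases. Soft-masked letters are those by which the assembly marks repeats. Of all peaks in these 2 classes, 13.5% had that share. Among soft-masked intergenic peaks 18.1% held the letters in the central 200 bp, against 0.944% of soft-masked tiles. Among the others it was 0.693% against 0.110%. CTCF was the opposite, in 0.188% of soft-masked and 3.91% of other intergenic peaks.

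Soft-masked peaks were about as frequent as soft-masked DNA, but they made up most of the widest distal peaks. They were 17.2% of intergenic peaks and 9.57% of intron peaks, where 17.4 and 9.23% of tiles are soft-masked. By width, however, their share among intergenic peaks was 17.4% under 200 bp, 15.0% at 200 to 500 bp, 20.3% at 500 to 1000 bp, 41.5% at 1000 to 1500 bp and 67.4% (60.2 to 73.9%) beyond. In introns it was 12.0, 6.72, 10.2, 33.4 and 71.2% (60.0 to 80.3%) in the same bands. Only 15 of the 877 soft-masked intron and intergenic peaks of at least 1 kb overlapped H3K4me3, or 1.71%, against 53.6% of the 1210 others of that width.

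These 877 peaks lay on all 19 chromosomes and were largely copies of each other. A median of 91.7% of the 31-base words of such a peak also occurred in another of them, and 844 (96.2%) shared over 50%. Of the 1210 other wide peaks, 88 (7.27%) shared over 50% of their words among themselves. AAGATGGCG was found in 719 of the 877 (82.0%) and in 89 of the 1210 (7.36%). Peaks with the letters held 5 copies at the median and up to 12, and 694 held more than 1. Of 2709 distances between neighbouring copies, 2120 were exactly 212 bp and 216 were 206 bp, which is the tandem unit seen in the chr8 repeat window above. GC content was 62.7% at the median, against 53.4% in the other wide peaks. Young mouse L1 elements are known to begin with tandem promoter units, but the repeat family of these peaks was not assigned here. Since reads from such copies can map to several places, a listed peak may stand for another copy, and this was not tested.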

How the data were processed

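ATAC-seq of fresh F123 cells was done in 2 replicates. The authors mapped reads to mm10 with Bowtie 1.1.2 and removed duplicates and mitochondrial reads with SAMtools. Read ends were moved by 4 bp for the Tn5 insertion. Peaks were called with MACS2 2.1.1.20160309 per replicate and on pooled reads, with a cutoff on the p-value. Pooled peaks found in both replicates were kept with bedtools 2.27.1. The deposited list holds positions and no other score, so pooled and replicate values cannot be separated. For H3K4me3, the authors ran the ENCODE pipeline for histone marks with default settings. Its deposited columns used here are positions, a fold enrichment (a ratio over background) and −log10 q. Neither list carries counts, so depth is unknown. PLAC-seq and input samples were not analysed here.

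Gaps were counted from edge to edge, in bases between peaks. Genome shares used bases that are not N. Sequence was read from the mm10 reference assembly, in the central 200 bp of each peak and in 200 bp tiles placed by their centre. Peaks whose window was incomplete or held N were left out of the sequence shares. Protein-coding genes were those with a protein-coding transcript. In each class the sequence shown is of the widest peak whose nearest protein-coding start is of a pluripotency gene, outside UTRs and chromosome 18. Genes named are from the 5 lists, of which some members are not reported here, and the genes nearest to the 3 widest peaks of each class. Gmeb1 and Ttc8 were chosen for their motif matches, after values were seen. The members and lists were chosen with earlier results of these data known. Placement, gaps, merging and motif counts were tested on simulated data. Computations ran in Python 3.11.15 with scipy 1.17.1, pandas 2.3.3 and numpy 2.4.6, and plots in matplotlib 3.10.9. Intervals are 95% Wilson intervals. No test was made, and alternatives are given in the closing section.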

Additional observations from a re-analysis of the deposited data

Results flagged for a closer look

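The list also held peaks outside chromosomes 1 to 19, which the classes above do not use. Chromosome X had 5263 peaks, or 32.2 per known Mb, below the 61.8 per Mb of the sparsest autosome. By class, protein-coding starts on X had a fold of 8.83, above the range of 3.93 to 6.07 over the autosomes, and 2897 of the X peaks were intergenic. Their median width was 276 bp and their median gap 5200 bp. On X, other starts had 2.09, exons 1.26, introns 0.881 and intergenic DNA 0.822. Chromosome Y had 501 peaks, or 5.69 per Mb, of which 412 (82.2%) were intergenic and 10 lay at protein-coding starts, and 2.00% overlapped H3K4me3. On Y, 3 classes fell on the other side of 1 from the autosomes, with folds of 0.781 at other starts, 0.566 in exons (2 peaks) and 2.16 in introns. Scaffolds that are not placed in a chromosome sequence held 387 peaks on 37 scaffolds, 102 of them on 1. Differences in density between these chromosomes and the autosomes were not tested.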

How the results depend on the processing

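Each class stayed on its side of 1 under every alternative run for the fold of peak share over genome share. In the order protein-coding start, other start, exon, intron and intergenic, the folds were 7.25, 2.21, 1.56, 0.938 and 0.792 with 0.5 kb windows, 3.18, 1.46, 1.50, 0.896 and 0.772 with 2 kb windows, 4.98, 1.89, 2.01, 0.858 and 0.775 when a peak was placed by any base, 5.29, 1.72, 1.66, 0.947 and 0.792 with transcripts tagged basic, and 7.48, 1.83, 1.53, 0.797 and 0.734 for the widest 50% of peaks. They were 4.89, 1.80, 1.56, 0.941 and 0.764 with all bases of the assembly, 5.02, 1.78, 1.58, 0.952 and 0.759 with X and Y added, and 5.28, 1.86, 1.66, 0.931 and 0.728 without peaks of at least 90% soft-masked bases, a setting chosen after seeing the data. Merging peaks under 100 bp apart, which left 171938, kept all 5 within their intervals. Exons came above other starts with 2 kb windows and by any base. The median width at protein-coding starts was 829 bp for the widest 50%, 717.5 bp merged, 689 bp by any base, 792 and 572 bp with 0.5 and 2 kb windows and 739 bp with basic transcripts, above every other class each time. Its median gap was 1868 bp between midpoints, 1473.5 bp merged, 5678 bp for the widest 50%, 2051 bp with 0.5 kb and 1085 bp with 2 kb windows. H3K4me3 overlap there was 80.4% with at least 50% of the peak inside. The share of open genes was 71.4 and 77.7% with 0.5 and 2 kb windows and 71.0% with the widest 50%. Of 65 values of the main results under an alternative, 13 stayed within their intervals and 52 moved. Of 65 further values, 25 stayed within their intervals and 40 moved. Soft-masked peaks were 42.0% of intron and intergenic peaks of at least 1 kb, and 53.2% at a mask of at least 50%, chosen after seeing the data. No paired analysis was possible because 1 list stands for both replicates, which is also why leaving out a replicate was not run. Peak counts depend on depth, which is unknown.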
